A study of Homo sapiens with 4 samples.

Results

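Chromatin accessibility was described at 10 genes that mark pancreatic duct and other simple epithelia: the keratins KRT7, KRT8, KRT18 and KRT19, the duct genes CFTR, MUC1 and SPP1, the adhesion genes EPCAM and CDH1, and the surface protein gene GP2. A region was a stretch of the genome covered by a peak in at least 1 of 4 ATAC-seq peak lists, with touching peaks merged at an overlap of 1 bp. A region was assigned to a gene when it overlapped the gene body (GENCODE release 44) or the 20 kb on either side. This gave 116 regions of 164301 in all. KRT8 and KRT18 are neighbours on chromosome 12 and shared 4 of these regions, so that the genes were described over 120 gene and region pairs. The nearest start of a protein-coding gene was that of the listed gene in 74 of the 120 pairs.

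The cells were pancreatic progenitors (PP) differentiated from MEL1, an established human embryonic stem cell line. The study's methods name it MEL1 INS GFP/W, a line that carries a GFP reporter in the insulin gene. All cells were kept in EF6 medium, which is DMEM with B27, EGF, bFGF and the compound 616452. The control group received DMSO, the solvent, and the other group received 1 μM I-BET151 for 7 days. I-BET151 inhibits the bromodomains of the BET proteins, which bind acetylated histones. ATAC-seq uses a transposase that cuts and tags open chromatin, and each library was made from 50000 cells. There were 2 libraries of each group, all from a single cell line, and no label states that they came from separate cultures, so that every p-value below measures only the spread between these libraries.

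Keratins 8 and 18 pair into the intermediate filaments of simple epithelia, and keratins 7 and 19 are added in duct epithelia. In the pancreas CFTR, an anion channel of the apical membrane, serves fluid and bicarbonate secretion by duct cells, whereas EPCAM and E-cadherin (CDH1) join epithelial cells to each other. Duct and endocrine cells both arise from the progenitor epithelium during pancreatic development, and GP2, best known as a protein of acinar secretory granules, is also used as a surface marker of human pancreatic progenitors.

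The lists held 82568 and 38295 peaks in DMSO replicates 1 and 2, and 84995 and 111324 peaks in I-BET151 replicates 1 and 2. From the background in the lists, the depth was 38.7 and 36.6 M reads with DMSO but 12.5 and 16.0 M reads with I-BET151. The weakest peaks held 10 and 11 reads in the DMSO lists and 5 and 6 reads in the I-BET151 lists. Depth, background and length of list therefore moved with treatment and replicate, and their part in the differences below cannot be told apart from that of I-BET151. A region absent from a list is one that did not pass the threshold there, and its reads are not known. A library of many cells also cannot tell more cells with an open site from a site open more often in each cell. Of the 8 progenitor marker genes (among them PDX1, NKX6-1, SOX9, FOXA2, GATA4, GATA6 and ONECUT1), the start was called for 7, 6, 8 and 8 in the same order of libraries, and the start of PDX1 was called in the I-BET151 lists alone. The starts of the hormone genes INS and GCG were called in no list, whereas that of CHGA, also an endocrine marker, was called in 3.

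Sequences of sites that the results turn on are given here, in lower case, with matches to the motifs described further on in capitals. The stretch upstream of SPP1 comes from a promoter set (RefSeq, GRCh38.p14) that held 5 of the 10 genes and not KRT7, KRT18, KRT19, EPCAM or CDH1. It covers chr4:87975464-87975663 on the plus strand, which is 250 to 51 bases before the start, and it is shown because the start of SPP1 was called only with I-BET151. It held none of the motifs searched.
SPP1 upstream: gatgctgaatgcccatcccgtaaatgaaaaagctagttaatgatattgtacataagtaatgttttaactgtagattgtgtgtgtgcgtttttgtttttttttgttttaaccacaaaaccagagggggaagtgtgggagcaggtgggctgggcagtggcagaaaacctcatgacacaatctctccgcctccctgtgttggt
The corresponding stretch of MUC1, chr1:155192966-155193165 on the minus strand, is shown for comparison because a region beside it was called in every library, and its capitals mark a TEAD and a KLF/SP match.
MUC1 upstream: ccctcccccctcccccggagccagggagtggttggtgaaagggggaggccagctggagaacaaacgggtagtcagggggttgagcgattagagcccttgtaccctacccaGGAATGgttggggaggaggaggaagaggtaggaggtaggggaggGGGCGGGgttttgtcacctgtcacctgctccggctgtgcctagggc
The other stretches are 151 bases around a summit, read from the plus strand of hg38, and the next pair had no peak in either DMSO list. In intron 2 of CDH1, chr16:68744977-68745127 holds a grainyhead match.
CDH1 intron: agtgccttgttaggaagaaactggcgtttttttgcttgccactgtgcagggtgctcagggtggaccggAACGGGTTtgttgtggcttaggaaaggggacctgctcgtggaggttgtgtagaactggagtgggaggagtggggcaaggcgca
In intron 21 of CFTR, chr7:117616957-117617107 holds a TATA match in reverse orientation.
CFTR intron: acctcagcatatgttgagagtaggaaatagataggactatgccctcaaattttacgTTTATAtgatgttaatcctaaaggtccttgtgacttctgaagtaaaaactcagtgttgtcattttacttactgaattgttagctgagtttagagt
The stretch chr2:47360516-47360666, upstream of EPCAM, lies in the only region of the list whose rank differed between the groups by the test, and it holds a TATA match.
EPCAM upstream: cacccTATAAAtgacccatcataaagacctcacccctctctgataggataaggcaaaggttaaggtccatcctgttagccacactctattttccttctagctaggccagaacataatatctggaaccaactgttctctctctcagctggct

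Of the 116 regions, 32 were called in all 4 lists (27.6%, with 15.6% of all regions). Another 26 were called in both I-BET151 lists but in neither DMSO list. The latter, called gained here, made up 22.4% of the list, and 17.0% of all 164301 regions were of this kind. The opposite pattern, called lost here, was seen at 2 regions, at a background of 2.37%. The remaining 56 regions had other combinations, 40 of the 116 being called in 1 list only (34.5%, with 51.8% of all regions). Between the replicate 1 libraries, 32 regions had a peak with I-BET151 alone (27.6%, with 28.1% of all regions) and 26 with DMSO alone (22.4%, with 26.8% of all regions). Between the replicate 2 libraries, 55 had a peak with I-BET151 alone (47.4%, with 48.6% of all regions) and 3 with DMSO alone (2.59%, with 3.84% of all regions). The shares called in 1 group alone thus lay near those of the genome in either pair. Regions with a peak in both groups were more frequent in the list. They numbered 38 between the replicate 1 libraries (32.8%, with 21.1% of all regions). Between the replicate 2 libraries they also numbered 38 (32.8%, with 19.1% of all regions). The count of gained regions was smaller with shorter lists, while that of lost regions could be higher. When each list was reduced to its 38295 strongest peaks, 63 regions were left, of which 5 were gained (7.94%, with 9.19% of all regions) and 3 were lost (4.76%, with 5.85% of all regions), and 4 of the 26 gained regions were still called so. Single libraries mattered as well: leaving out I-BET151 replicate 1 gave 45 gained regions (at a background of 39.3%), leaving out DMSO replicate 2 gave 18 lost (background 20.4%), and leaving out I-BET151 replicate 2 gave 6 lost (background 4.46%).

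**Figure D1:**
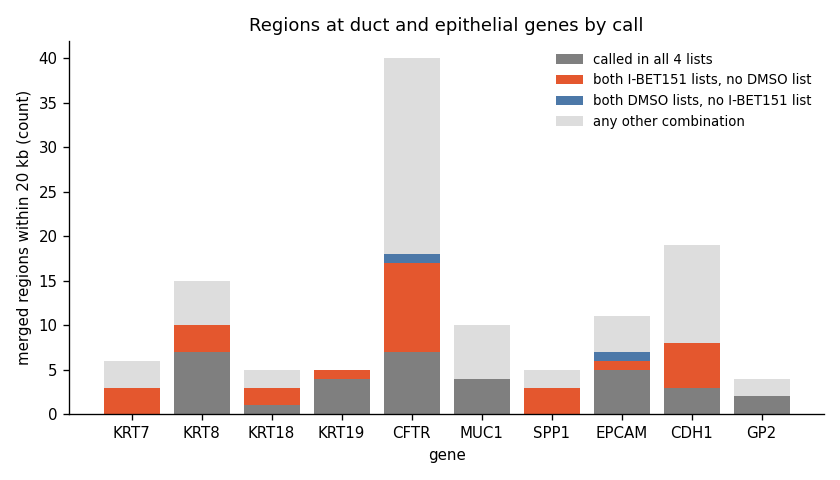
Number of merged regions (y axis) within 20 kb of each gene (x axis), stacked by the lists that called them. Grey bars count regions in all 4 lists, orange those in both I-BET151 lists only (10 at CFTR, none at MUC1 or GP2), blue those in both DMSO lists only (1 each at CFTR and EPCAM), and light grey the rest.

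Among the keratin genes, the 2 regions at the KRT8 start used here stood higher within the I-BET151 lists, though neither passed the test. KRT7 had no called start in any library. The start of KRT8 was covered by a pair of regions called in all lists. The region chr12:52904965-52905548, with its summit 192 bp upstream of the start, held 26 and 27 reads at its summit in DMSO and 33 and 57 in I-BET151. Its fold enrichment, which is the pileup of reads at the summit over the local background, was 3.04 and 3.15 in DMSO and 6.46 and 6.71 in I-BET151. Ordered by fold within its list, it stood at the 12.05 and 17.1 percentiles in DMSO and at the 63.7 and 57.7 percentiles in I-BET151. The groups did not overlap in any of these measures. Fold was also higher over whole lists, with medians of 3.88 and 4.08 in DMSO and 5.56 and 6.03 in I-BET151. The intronic region 1113 bp downstream of the start stood at the 9.27 and 9.01 percentiles in DMSO and at 54.9 and 38.4 in I-BET151. Neither difference in rank passed limma's test over the 25627 regions called in all lists (adjusted p = 0.22 and 0.36). Another shared KRT8 region lay 20.9 kb upstream, inside the gene body of longer transcripts. It covers the stretch that the RefSeq promoter set holds for KRT8, chr12:52926520-52926719. This region lay at the 62.2 and 47.5 percentiles in DMSO and at 37.4 and 25.1 in I-BET151 (limma, adjusted p = 0.10). Shared sites of this gene thus stood in opposite orders.

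KRT18, the partner of KRT8, had a single region at its start, in intron 1 (chr12:52949781-52950154), which was called everywhere with 24 and 27 reads in DMSO and 21 and 44 in I-BET151. It lay low in every list, between the 8.21 and the 13.4 percentile, and the groups overlapped. The 2 gained regions in its window lay 15.7 and 21.2 kb downstream of its start and are counted for KRT8 too. The nearer held 8 and 9 reads in the I-BET151 libraries, and the other held 9 and 17. The third gained region of KRT8, 16.0 kb upstream of its start and within longer transcripts, held 22 and 33 reads.

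The start of KRT19 was called in all libraries at chr17:41528291-41528710, with 33 and 30 reads in DMSO and 22 and 44 in I-BET151. Its percentiles of 47.2 and 36.6 in DMSO and 48.7 and 31.96 in I-BET151 overlapped. A stronger region 2150 bp upstream held 45 and 40 reads in DMSO and 31 and 82 in I-BET151. Of the 5 regions of KRT19, 4 were called in all lists, and the gained one lay 16.9 kb downstream with 10 and 22 reads. KRT7 had 6 regions, none of them present in every list and 3 of them gained. These lay 19.5 kb upstream (12 and 30 reads), in intron 7 (12 and 21 reads) and 30.5 kb downstream inside KRT86 (8 and 16 reads). A region 17.3 kb upstream of KRT7 was called in all libraries but I-BET151 replicate 1, with 36 and 27 reads in DMSO and 42 in I-BET151 replicate 2. No accessibility at the start of KRT7 itself was detectable at this depth.

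Of the duct genes, SPP1 (osteopontin, a secreted phosphoprotein made by duct cells) had no peak in either DMSO list. Its start was called in both I-BET151 lists at chr4:87975522-87975871, with the summit 39 bp before the start and 11 and 18 reads. The folds of 4.72 and 5.05 placed this region at the 34.3 and 33.3 percentiles of the I-BET151 lists. The other 2 gained regions lay 10.2 kb downstream of the start (8 and 19 reads) and 12.8 kb upstream (6 and 8 reads). A region 1897 bp upstream was called in I-BET151 replicate 2 only, with 24 reads. All these sites were weak. The region at the start was still gained when peaks needed a −log10 p of at least 5, but none of the 3 was called in both I-BET151 lists at 10, and the window held no peak when the lists were of equal length.

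CFTR had 40 regions over a gene body of 428852 bp, and its own start was the nearest one for 19 of them. Of the 40 regions, 7 were present in every list, 10 were gained and 1 was lost. In the introns of the transcript used here lay 3 of the gained regions. At its start (chr7:117479528-117480300, summit 52 bp upstream) 21 and 28 reads were found in DMSO and 33 and 43 in I-BET151. The percentiles were 79.7 and 79.1 in DMSO and 89.1 and 72.0 in I-BET151, so that the ranks overlapped whereas the reads did not. The gained region with the highest fold lay 251.5 kb downstream of the start, inside the neighbouring gene CTTNBP2, with 25 and 30 reads (87.4 and 75.4 percentiles). The next lay in intron 21 (chr7:117616688-117617255), with 16 and 33 reads and at the 72.6 and 81.4 percentiles. Both were still gained at a −log10 p of at least 10 and with lists of equal length. Gained regions upstream of the start, 33.7 and 44.3 kb away, held 12 and 13 reads and 8 and 16 reads, and the other 6 held 9 to 26 reads. The lost region lay 201.7 kb upstream, inside WNT2, with 20 and 15 reads in DMSO.

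The shared regions of CFTR differed in direction. In intron 1, 10.2 kb downstream of the start, 27 and 21 reads were found in DMSO and 15 and 37 in I-BET151, and the percentiles of 94.1 and 70.0 in DMSO stood against 42.1 and 72.9 in I-BET151 (limma rank difference −1.40 ± 0.41 (SE), adjusted p = 0.057). At 237.1 kb downstream, where the window reaches CTTNBP2, 18 reads were found in each DMSO library and 27 and 71 in I-BET151. There the percentiles of 54.0 and 24.0 stood against 80.1 and 92.6 (1.296 ± 0.39, adjusted p = 0.065). Neither passed the threshold of 0.05.

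MUC1, a membrane mucin of the apical surface, had 10 regions and none that was gained or lost. The region nearest its start (chr1:155193276-155194016, summit 800 bp upstream) held 38 and 35 reads in DMSO and 36 and 63 in I-BET151. Its fold was 3.90 and 3.80 in DMSO and 7.74 and 8.48 in I-BET151, where the median fold of the whole list was higher too. Its percentiles of 51.8 and 41.0 in DMSO against 75.6 and 74.7 in I-BET151 did not overlap. A second region 2053 bp upstream lay at the 25.3 and 41.8 percentiles in DMSO and at 61.9 and 64.3 in I-BET151. Neither passed the limma test (adjusted p = 0.49 and 0.73).

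**Figure D2:**
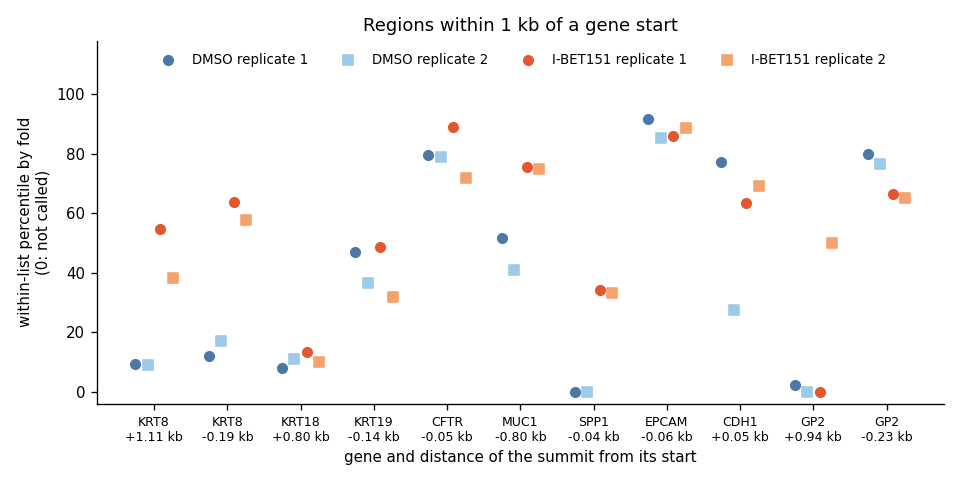
Percentile of each region within 1 kb of a gene start, ordered by fold within its list (y axis, 0 where not called), for each library (blue, DMSO; orange, I-BET151; circles, replicate 1; squares, replicate 2). KRT8, MUC1 and SPP1 stood higher in both I-BET151 libraries, whereas the region at GP2 231 bp upstream stood lower in both (66.4 and 65.3 against 79.9 and 76.6).

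EPCAM, an adhesion molecule of most epithelia, held the strongest region of the whole list and the only one whose rank differed by the test. At chr2:47344953-47345625, 24.1 kb upstream of the start used here and at the beginning of longer transcripts, 76 and 83 reads were found in DMSO and 92 and 196 in I-BET151. This region stood at the 98.8 percentile or above in every list. The start itself (chr2:47368943-47370111) was also called everywhere, with 35 and 33 reads in DMSO and 29 and 57 in I-BET151 and with percentiles of 91.7 and 85.4 against 86.0 and 88.6. Between them, at chr2:47360248-47361364, 40 and 32 reads were found in DMSO and 12 and 48 in I-BET151. The folds there were 7.54 and 6.46 in DMSO and 6.50 and 8.88 in I-BET151, and the percentiles fell from 95.6 and 87.0 to 64.1 and 77.5 without overlap (limma rank difference −1.46 ± 0.38 (SE), adjusted p = 0.039).

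The call on this EPCAM region was not kept when any of 3 libraries was left out. The rank difference was −1.28 without I-BET151 replicate 1 (limma, adjusted p = 0.082), −1.36 without DMSO replicate 1 (adjusted p = 0.27) and −1.50 without DMSO replicate 2 (adjusted p = 0.19). Without I-BET151 replicate 2 it was −1.57 and passed (limma, adjusted p = 0.012). Taken as reads scaled to library depth in place of ranks, the region was higher with I-BET151 by 0.84 on the log2 scale (limma, adjusted p = 0.060), and centred on the median of each library it was lower by −1.09 (adjusted p = 0.070). The gained region of EPCAM lay in coding exon 3 with 16 and 19 reads, and the lost region lay 36.9 kb upstream with 18 and 17 reads in DMSO.

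CDH1 had 19 regions, and its 5 gained regions all lay in intron 2. The strongest, chr16:68744779-68745199, 7760 bp downstream of the start, held 21 and 41 reads and stood at the 82.3 and 78.2 percentiles. Another 49.6 kb downstream held 17 and 38 reads (68.7 and 79.4 percentiles). Both were still gained at a −log10 p of at least 10 and with lists of equal length, and besides them only the 2 CFTR regions named above met both conditions. The remaining gained regions, 42.1, 53.2 and 63.2 kb downstream, held 9 and 12, 10 and 23, and 16 and 17 reads. At the start of CDH1 (chr16:68737001-68737525, in the untranslated part of exon 1) 36 and 24 reads were found in DMSO and 17 and 38 in I-BET151, and the percentiles of 77.1 and 27.6 against 63.4 and 69.1 overlapped. In the same intron, 23.7 kb downstream, a shared region stood at the 24.6 and 30.9 percentiles in DMSO and at 67.9 and 68.4 in I-BET151, without overlap but also without passing the test (limma, adjusted p = 0.35). DMSO lists held their own peaks in intron 2 as well, among them regions called in DMSO replicate 1 alone with 14, 16 and 18 reads.

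**Figure D3:**
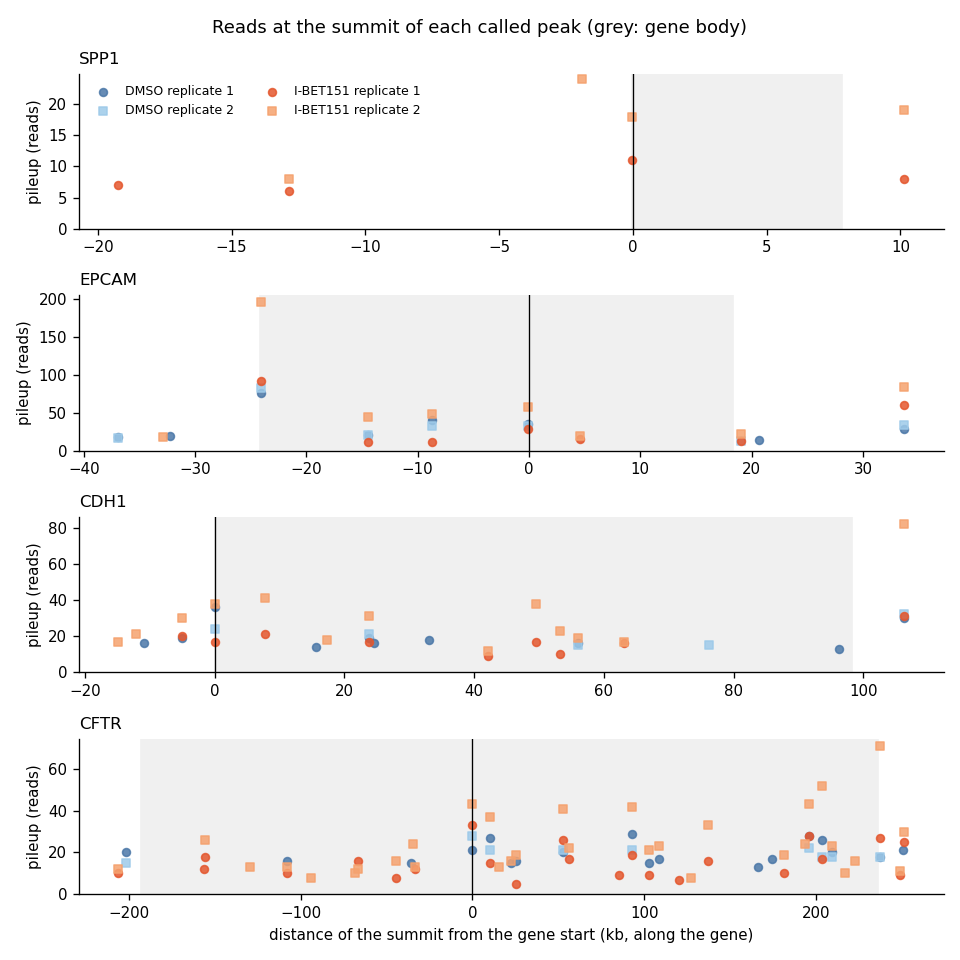
Pileup of reads at the summit of each called peak (y axis) against its distance from the gene start in kb (x axis) for SPP1, EPCAM, CDH1 and CFTR; grey marks the gene body and each panel has its own scale. SPP1 had peaks from I-BET151 lists only, the EPCAM region 24.1 kb upstream reached 196 reads, and points without a partner of another colour are peaks called in a single group.

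GP2 had 4 regions, 2 of them present in every list and none gained or lost. At its start (chr16:20327441-20328068) 35 and 39 reads were found in DMSO and 23 and 44 in I-BET151. The percentiles of 79.9 and 76.6 in DMSO and 66.4 and 65.3 in I-BET151 did not overlap (limma rank difference −0.87 ± 0.39 (SE), adjusted p = 0.18). A region 936 bp into the gene was called in DMSO replicate 1 with 19 reads and in I-BET151 replicate 2 with 36 reads, and in neither of the other libraries.

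Across the 32 regions called in all lists, 0 were higher in rank with I-BET151 by limma (adjusted p under 0.05), at a background of 3.41%, and 1 was lower, at a background of 1.96%. At an unadjusted p under 0.05 there were 5 (15.6%), while this was so for 24.9% of all shared regions. Rank here was taken among the 25627 shared regions of each list, not over the whole list. The difference in rank was negative for 22 regions (68.8%, with 51.6% of all shared regions) and positive for 10. Its median was −0.35 normal score units, against −0.03 over all shared regions. Percentiles of the whole list could move the other way. At the KRT19 region 2150 bp upstream the mean percentile was 3.74 higher with I-BET151, at a rank difference of −0.26. Reads scaled to the depth of the library gave another picture. The scaled pileup was the higher one with I-BET151 for 30 of the 32 regions between the replicate 1 libraries (97.9% of all shared regions) and for all 32 between the replicate 2 libraries (99.5% of all shared regions). For the listed genes the median log2 difference was 1.36 between the replicate 1 libraries and 2.12 between the others, and over all shared regions it was 1.57 and 2.25. Relative to that general shift, 18 of the 32 regions were lower in both pairs (56.2%, with 35.0% of all shared regions) and 6 were higher in both (18.8%, with 35.1%).

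**Figure D4:**
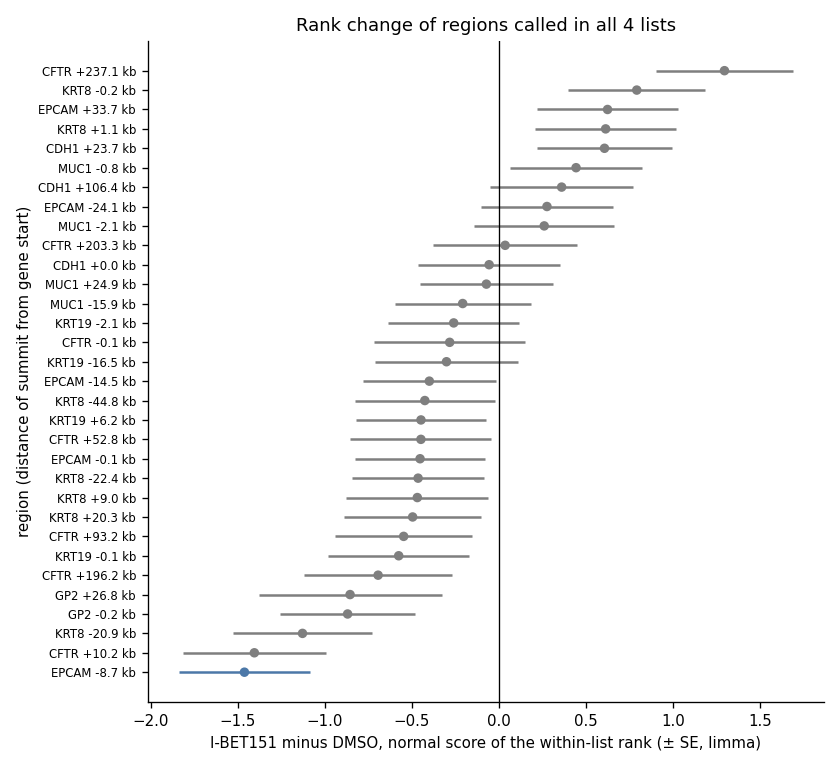
Difference in rank between I-BET151 and DMSO (x axis, normal score units, points with SE from limma) for the 32 regions called in all lists. Rank was taken within each list among all regions called in every list. Regions are named by gene and distance of the summit from the gene start (y axis). The EPCAM region 8.7 kb upstream (blue, −1.46) passed the test, and the CFTR region 237.1 kb downstream had the highest value (1.296).

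The locus score of a gene is the mean percentile of all regions in its window, counting 0 where a list did not call a region. It was higher with I-BET151 in all 10 genes as a mean of libraries, with a median difference of 11.98, while over 18871 protein-coding genes the median was 10.7 and 82.8% were higher. SPP1 had the largest difference, with scores of 0 in both DMSO libraries and 17.8 and 33.6 in I-BET151, at the 89.0 percentile of the genes. CDH1 followed with 23.8 and 10.1 in DMSO and 30.7 and 39.6 in I-BET151, a difference of 18.2. The smallest difference was that of EPCAM (2.98), which had 50.0 and 41.9 in DMSO and 46.6 and 51.3 in I-BET151.

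In 5 genes both I-BET151 libraries stood above both DMSO libraries, which was so for 51.3% of all genes, and in 0 genes they stood below, at a background of 2.96%. These were SPP1, CDH1, KRT8 (23.6 and 16.0 in DMSO, 32.5 and 31.97 in I-BET151), KRT18 (12.4 and 5.17, 23.8 and 21.0) and MUC1 (22.2 and 20.003, 33.9 and 37.0). For each the exact permutation test gave p = 0.33 (two-sided), the smallest value that 2 against 2 libraries allow. Any such separation gives this value. All regions of SPP1 came from I-BET151 lists, so its DMSO scores were 0 by construction and the test cannot decide there. Gained regions at KRT8, KRT18 and CDH1 also entered the DMSO scores as 0. The groups overlapped at KRT7 (18.2 and 4.71, 9.94 and 34.4), KRT19 (56.2 and 37.0, 53.6 and 58.2) and CFTR (31.0 and 10.9, 28.3 and 36.6). They also overlapped at EPCAM and at GP2 (38.6 and 30.3, 18.1 and 58.1). Between the replicate 1 libraries 5 of the 10 genes were higher with I-BET151 (54.5% of all genes), and between the replicate 2 libraries all 10 were (93.8% of all genes).

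With the 38295 strongest peaks of each list the SPP1 window held no region, and of the 9 genes with a score 1, CDH1, was higher with I-BET151 (15.7 and 19.2 in DMSO, 33.9 and 24.3 in I-BET151). KRT19 then had 41.9 and 46.2 in DMSO and 18.0 in each I-BET151 library, and GP2 had 32.1 and 40.4 in DMSO and 8.51 and 18.7 in I-BET151. Over 17880 genes the median difference became −0.286, with 49.1% of them higher.

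**Figure D5:**
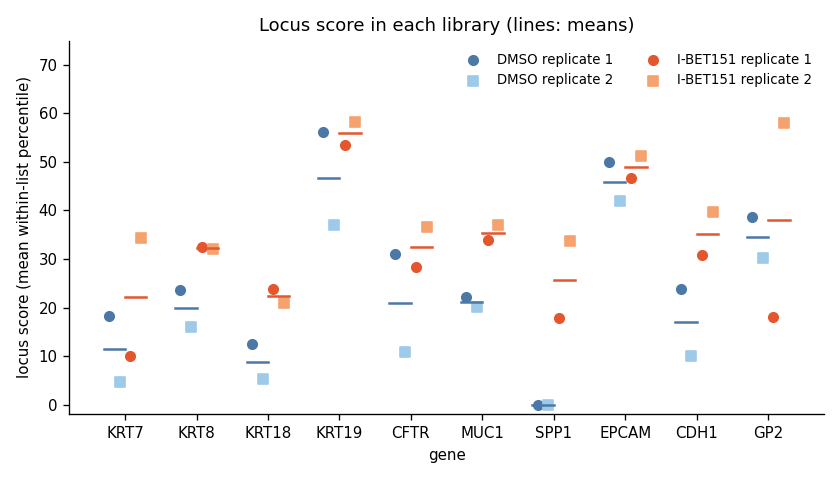
Locus score of each gene (y axis, mean within-list percentile of its regions) in each library (blue, DMSO; orange, I-BET151; circles, replicate 1; squares, replicate 2), with lines at the group means. SPP1 lay at 0 in DMSO, and the groups separated at KRT8, KRT18, MUC1, SPP1 and CDH1.

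As with gained regions in general, few of those at these genes lay near a start. Of the 26, the SPP1 region alone lay within 1 kb of the start of a protein-coding gene (3.85%, with 5.44% of all gained regions), whereas 11 of the 32 shared regions did (34.4%, with 36.1% of all shared regions). Gained regions held 6 to 25 reads in I-BET151 replicate 1 and 8 to 41 in replicate 2. The median percentile of these regions was 34.5 and 33.7, below the 47.7 and 49.6 of all gained regions. Within 100 bp of the summit their median GC content was 50.5%, with 45.3% for all gained regions, and that of the shared regions was 56.5%, with 55.2% for all shared regions.

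Exact matches to 11 motifs were counted on either strand within 100 bp of the summit, as letters in the reference genome and with motifs allowed to overlap each other. The letters GGAATG (TEAD) were the most frequent, in 17 of the 116 regions (14.7%, with 14.95% of all regions). The TATA box TATAAA followed in 14 (12.1%, with 9.68%). The AP-1 letters TGANTCA were found in 9 (7.76%, with 11.01% of all regions) and the KLF/SP letters GGGCGGG also in 9 (with 6.31%). FOXA (TGTTTAC) had matches in 6 (5.17%, with 4.57%), HNF6 (TATNGAT) in 5 (4.31%, with 6.50%) and SOX (ACAATGG) also in 5 (with 2.90%). The CTCF core (AGNGGGCGC), which can overlap KLF/SP, was found in 3 regions (2.59%, with 1.33%). The grainyhead letters AACNNGTT were found in 2 (1.72%, with 2.95%), the ETS letters CCGGAAG in 1 (0.862%, with 1.89%) and the HNF1 letters TTAATNATT in 0 (with 1.95% of all regions). Of the sequences given above, the CDH1 region thus carries a motif that few regions hold, and the wider window of the CFTR region also held a FOXA and a SOX match. Among 35116 promoter stretches of the same length as those of SPP1 and MUC1, 24.1% held the KLF/SP letters and 9.71% the TEAD letters.

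A second list of 28 duct and epithelial genes covered 371 regions, of which 56 were gained (15.1%, against 17.0% of all regions) and 5 were lost (1.35%, against 2.37%). By limma 2 of its 81 shared regions were higher in rank (at a background of 3.41%) and 3 were lower (at a background of 1.96%). The 3 lower ones lay at duct genes. The duct genes (among them SOX9, ONECUT1, AQP1, SLC4A4, ANXA4, BICC1, PKD2, PKHD1 and SCTR) had 39 gained regions of 205 (19.0%), the junction genes (CLDN3, CLDN4, CLDN7, OCLN, TJP1, DSP, JUP, PKP3, CTNND1 and F11R) had 10 of 107 (9.35%), and the regulators and surface genes (among them ELF3, OVOL2, KLF5, ST14, SPINT1, RAB25 and ESRP2) had 7 of 59 (11.9%). The locus score was higher with I-BET151 in 27 of the 28 genes (96.4%, with 82.8% of all genes). It was higher without overlap in 12 (42.9%, with 51.3% of all genes). The median difference was 10.6, against 10.7 over all genes. ONECUT1, a transcription factor of pancreatic progenitors and ducts, had the largest difference, with 13.1 and 1.62 in DMSO and 29.0 and 35.2 in I-BET151. KLF5, a zinc finger factor of epithelia, was the gene that was lower, with 63.8 and 41.1 in DMSO and 44.8 and 47.4 in I-BET151.

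Markers of other cells that the culture could hold were read at the gene start in the same way. In the order DMSO replicates 1 and 2 and I-BET151 replicates 1 and 2, the start was called for 8, 8, 9 and 9 of the 10 duct and epithelial genes and for 61.2%, 56.1%, 66.6% and 70.4% of 20007 protein-coding genes. It was called for 2, 2, 4 and 4 of 5 mesenchymal genes. COL1A1 and TWIST1 were called in every list, COL1A2 and PDGFRB only with I-BET151, and COL3A1 in no list. It was called for 1, 0, 2 and 1 of 5 endocrine genes. CHGA was called in 3 lists, NEUROD1 in I-BET151 replicate 1 only, and NEUROG3, INS and GCG in no list. Of 5 acinar genes only CPA1 was called, in every library, and PTF1A in none. Pluripotency genes were called for 1, 1, 1 and 2 of 5. Of these, LIN28A was called in every list, DPPA4 in I-BET151 replicate 2 only, and POU5F1, NANOG and TDGF1 in none. Liver genes were called for 3, 2, 2 and 2 of 5. Here APOA1 and SERPINA1 were called in every list, TTR in DMSO replicate 1 only, and ALB and AFP in none. More starts were called in the I-BET151 lists for the mesenchymal genes, for the duct and epithelial genes (by SPP1 alone) and for all protein-coding genes. The part of the mesenchymal starts in the results was not tested.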

How the data were processed

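ATAC-seq peak lists of 4 libraries, 2 per group, were used, grouped by their labels. The authors used Bowtie2 (v2.2.5) and the hg38 genome for alignment, and MACS2 (v2.1.2) to call peaks in each library without a control library. The deposited lists hold a display score (not used), a ratio per peak (fold enrichment of reads over local background, at the summit) and the −log10 p-value and −log10 q-value. They reach down to a q-value near 0.05, below the −log10 p of 5 in the methods, which was tried as an alternative. Peaks of replicate 1 were at least 200 bp long, and those of replicate 2 at least 233 (DMSO) and 256 bp (I-BET151).

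Peaks of the autosomes, X and Y were merged. The pileup in whole reads was solved from the fold and p-value, and the number of reads was taken from the genome-wide background with the default human genome size of MACS2 and a read extension equal to the shortest peak of each list. The methods state an extension of 200 bp, so the depths of replicate 2 rest on that assumption. Ranks by fold were taken within each list among the regions called in all lists, and turned into normal scores. They were compared with limma 3.58.1 (R 4.3.3, two-sided, Benjamini-Hochberg adjustment, threshold 0.05). No block was used, since the study states no paired analysis of these libraries. The correlation between the deviations of same-numbered libraries was −0.143. Locus scores were compared with exact permutation tests in Python 3.11.15 with scipy 1.17.1. All 10 genes are described. Regions are given singly where they lie within 1 kb of the gene start, are gained or lost, or were called by limma (at most 4 a gene, by mean fold), and others were chosen after their values were seen. Alternatives changed the peak threshold, the number of peaks, the overlap, the window, the ranking measure, the block and the libraries. The members and lists were chosen with earlier results of these data known. Some items are not reported here.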

Additional observations from a re-analysis of the deposited data

How the results depend on the processing

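With the gene body alone as the window, 16 of 70 regions were gained (with 17.0% of all regions) and 0 were lost (with 2.37%). With a −log10 p of at least 5, 1 of 109 regions was lost (0.917%, with 1.94% of all regions). At 10, 17 of 70 were gained (24.3%, with 23.3% of all regions), 7 of them among the original 26. None was lost at 10 (with 0.269% of all regions). With 38295 peaks in each list, 5 of 63 were gained (with 9.19% of all regions). Of 24 shared regions, 2 were lower in rank by limma (with 3.92% of all shared regions). The locus score was higher in 1 of 9 genes (with 49.1% of all genes). Leaving out each library in turn gave 28 to 45 gained regions. There were 28 without DMSO replicate 2 (with 18.0% of all regions) and 45 without I-BET151 replicate 1 (with 39.3%). The lost regions then numbered 2 to 18. There were 2 without I-BET151 replicate 1 (with 2.47% of all regions) and 18 without DMSO replicate 2 (with 20.4%). Without I-BET151 replicate 2 there were 6 (with 4.46%). A limma fit without a library leaves 1 library in a group, which was assumed to vary like the other group. By reads scaled to library depth, limma called 30 of 32 regions higher (with 96.1% of all shared regions) and 0 lower (with 0.0546%). The EPCAM region reversed, at 0.84. Ranking by −log10 p or centring the scaled reads on each library's median left 0 lower (with 0.105% and 4.78% of all shared regions). The labels' numbers were not shown to pair the libraries. A replicate block gave 2 lower regions (with 2.54% of all shared regions). In the replicate 1 pair 5 genes had higher locus scores (with 54.5% of all genes). A crossed replicate block, chosen after seeing the data, gave 1 higher (with 7.75% of all shared regions) and 3 lower (with 6.11%). Of 119 alternative values of single locus score differences, 99 were positive and 20 negative. The cause of these changes was not tested, except that stricter thresholds leave fewer regions. Depth limits calls to sites of at least 10 and 11 reads in DMSO and 5 and 6 in I-BET151, and counting error is not part of the spread of 2 libraries.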
